A study of Mus musculus with 12 samples.

Results

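Upper-layer projection neurons at postnatal day 1 (P1) were compared with deep-layer projection neurons at embryonic day 18.5 (E18.5), the nearest ages of the 2 populations on either side of birth. The comparison used 4 of the 12 lists of ATAC-seq peaks, 2 per group. All neurons came from the neocortex of CD1 mice and were sorted by FACS for GFP. The Golli-GFP transgene marked deep-layer neurons, whose other groups were E13.5 and E16.5. A plasmid in which the Cdk5r promoter drives GFP, electroporated in utero at E15.5, marked upper-layer neurons, and their other groups were E17.5 and P5. Each of the 6 groups had 2 lists, and each list pooled 2 to 8 embryos. Whether replicates came from separate litters is not stated in the labels, so the spread between lists may be technical. The 2 lists labelled P1 are replicates 1 and 3, and the peak names inside the list of replicate 3 call it replicate 2.

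Population, age, birth and the way the cells were marked all differ between the P1 and E18.5 groups and cannot be told apart within these 4 lists. The deep-layer label rests on a transgene and the upper-layer label on the day of electroporation, so each sorted population is defined by its reporter. No gene annotation or genome sequence of the build of the files, mm9, was used here. Regions are therefore named by position, counted from 1, and the labelled cell types were not checked against marker genes.

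Deep-layer projection neurons send axons mainly to the thalamus, brainstem and spinal cord. Upper-layer neurons are born later and connect mainly to other cortical areas, including those of the opposite hemisphere. Around birth both populations extend axons and begin to form synapses. In ATAC-seq, a transposase cuts accessible DNA such as active promoters and enhancers, and a peak marks a stretch with many cuts.

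The peaks of all 12 lists were merged, where they overlapped or touched, into 498516 regions. A list counted as open at a region when at least 1 bp of the region lay under one of its peaks. At least 1 of the 4 compared lists was open in 263367 regions. Of these, 15306 were open in both P1 lists and closed in both E18.5 lists, 5.81% of the regions open in any of the 4 lists, and are called the P1-open set below. The E18.5-open set, with both E18.5 lists open and both P1 lists closed, held 35499 regions or 13.5%. A further 23857 regions were open in all 4 lists. The sets follow from the rule, so their sizes are a description: with 2 lists against 2, an exact permutation test cannot give a two-sided p below 0.333.

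P1 replicate 1 held 114990 peaks and replicate 3 held 120206, with median peak widths of 303 and 302 bp. E18.5 replicate 1 held 96452 peaks and replicate 2 held 123839, with median widths of 416 and 476 bp. The lists of the 2 groups thus overlapped in number of peaks, while both P1 lists had narrower peaks. Both P1 lists also covered less sequence, 45.3 and 47.3 Mb in replicates 1 and 3. E18.5 replicates 1 and 2 covered 52.1 and 75.2 Mb. Among the other 8 lists, median widths were 316 and 326 bp at P5 and 390 to 489 bp in the 6 prenatal lists. Narrow peaks were therefore shared by P1 and P5. Depth is known only through the number of peaks, since the lists give no read totals.

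Replicates matched less well at P1 than at E18.5. P1 lists were open in 178427 regions, of which 24.9% were open in both replicates. E18.5 lists were open in 134601 regions, of which 53.7% were open in both. The Jaccard index, the base pairs covered by both of 2 lists over those covered by either, was 0.272 for the P1 replicates and 0.514 for the E18.5 replicates. Between the groups it was 0.205 and 0.164 for P1 replicate 1 with E18.5 replicates 1 and 2, and 0.244 and 0.203 for P1 replicate 3. The P1 replicates thus lay above all 4 pairs between the groups, and the nearest of these was P1 replicate 3 with E18.5 replicate 1. Regions open in a single P1 list and no E18.5 list numbered 113460, which is 43.1% of the regions open in any of the 4 lists, against 49441 open in a single E18.5 list and no P1 list.

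The E18.5-open set was 2.32 times as large as the P1-open set, but this order did not hold for every choice of lists. With 1 list per group the 4 possible pairs gave 75125 to 78465 regions open at P1 alone and 50746 to 87195 open at E18.5 alone. The ratio of E18.5 to P1 regions was then 0.740 and 1.11 for P1 replicate 1 against E18.5 replicates 1 and 2, and 0.673 and 1.06 for P1 replicate 3. The E18.5 list with more peaks gave a ratio above 1 and the one with fewer peaks a ratio below 1. Without P1 replicate 1 or 3 the P1-open set rose to 70440 and 73632 regions, and the ratio turned to 0.550 and 0.615. Without E18.5 replicate 1 the E18.5-open set rose to 74332 regions. In these cases 1 list defined 1 group and 2 lists the other, and the group with 1 list gains regions by construction. The ratios with a list left out therefore do not compare the groups under a like rule, while those of the single-list pairs do. At equal list length, where both replicates were still required, the sets kept their order, with 11715 and 34581 regions from the widest peaks and 10666 and 30237 after random thinning. The order of the 2 sets was thus not the same under every choice of lists.

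**Figure D1:**
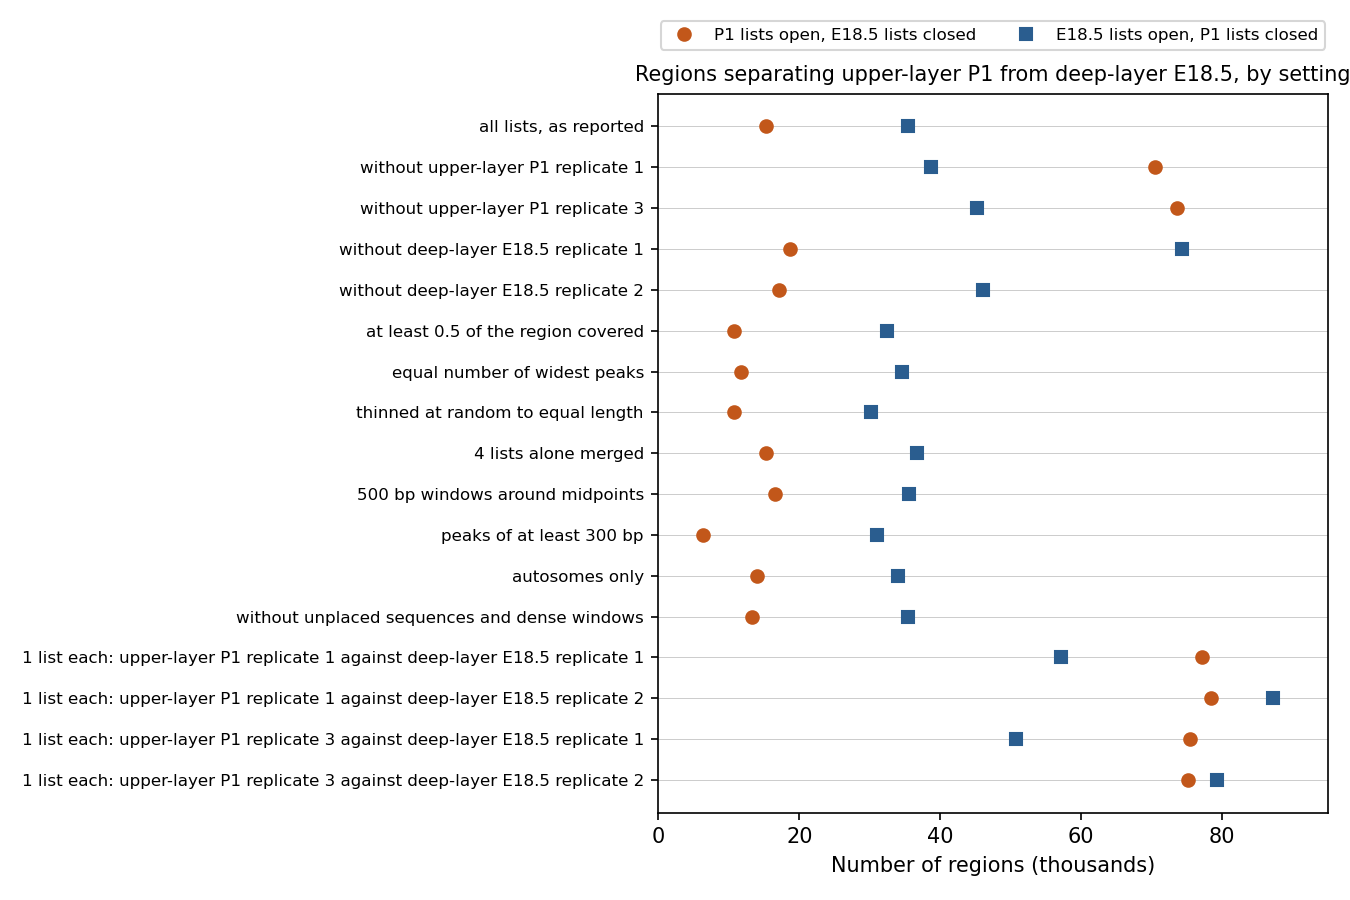
Number of regions (horizontal axis, in units of 1000) in the P1-open set (circles) and the E18.5-open set (squares), 1 row per processing setting. With both replicates of each group required, squares lie to the right of circles, while in the rows where 1 list defines the P1 group circles lie at 70440 or more, to the right of the squares in 4 of 6 such rows.

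Peaks of the P1-open set were narrow. The mean peak width of a region in its 2 defining lists had a median of 326 bp and a middle range (25th to 75th percentile) of 269 to 414.5 bp. In the E18.5-open set the median was 493.5 bp and the middle range 371.5 to 685.5 bp. Just outside the rule lay 5276 regions open in both P1 lists and 1 E18.5 list, with a median width of 413 bp in the P1 lists. Another 12975 regions were open in both E18.5 lists and 1 P1 list, with a median of 578.5 bp in the E18.5 lists. Regions that narrowly missed each set were thus wider than those inside it.

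The 23857 regions open in all 4 lists also differed in width. Their median width was 572 and 624 bp in P1 replicates 1 and 3 and 788 and 979 bp in E18.5 replicates 1 and 2. In 55.9% of them both P1 peaks were narrower than both E18.5 peaks, in 6.58% both were wider, and in the remaining 37.5% the widths overlapped. The median ratio of P1 to E18.5 width was 0.751. In the same regions the medians were 665 to 733 bp in the 4 deep-layer lists of E13.5 and E16.5, 948 and 1010 bp at upper-layer E17.5, and 621 and 755 bp at upper-layer P5. The upper-layer E17.5 lists were thus the closest in width to E18.5 replicate 2, and P1 replicate 1 had the narrowest peaks of the 12 lists.

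The 8 lists that took no part in choosing the regions show where else the sets were open. In the P1-open set, 42.8% and 39.2% of regions were open in upper-layer P5 replicates 1 and 2. At upper-layer E17.5 the shares were 10.1% and 8.41%. The deep-layer E13.5 lists were open in 5.38% and 7.30%, and the E16.5 lists in 2.78% and 3.56%. Over all 498516 regions, the open share was 25.1% and 20.3% at P5, 32.2% and 23.8% at E17.5, 24.4% and 28.6% at E13.5, and 23.7% and 18.1% at E16.5. The P5 lists thus lay above their share of all regions and the 6 prenatal lists below theirs. All regions include 235149 closed in the 4 compared lists, which must be open in at least 1 of these 8. This favours higher shares over all regions, also as used for the E18.5-open set below. The P1-open set was chosen as closed at E18.5, which favours low prenatal shares.

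In the E18.5-open set the order was nearly the opposite. Deep-layer E16.5 replicates 1 and 2 were open in 84.1% and 70.9% of regions, E13.5 in 57.4% and 63.8%, upper-layer E17.5 in 61.0% and 52.2%, and upper-layer P5 in 11.2% and 16.6%. The 6 prenatal lists lay above their shares of all regions and the P5 lists below theirs. The deep-layer E13.5 and upper-layer E17.5 values overlapped, but these lists differ in size. Over all regions the open share was 24.4% and 28.6% at E13.5 and 32.2% and 23.8% at E17.5. The shares of the set were not adjusted for this. The 95% Wilson intervals of these shares, which cover counting error only, reached at most 0.784 percentage points either side. Regions open in all 4 compared lists were open in 86.0% to 97.8% of cases in each of the 8 other lists.

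For each of the 8 lists, the share of the P1-open set minus the share of the E18.5-open set gives 1 value. It is positive where the list held the larger share of the P1-open set. Of the P1-open set 36.4%, and of the E18.5-open set 5.69%, were open in none of the 8 lists. The sign alone is therefore no measure of likeness to P1, and values are read between lists. The value was 31.6 and 22.6 points at P5 and -50.9 and -43.8 at upper-layer E17.5. It was -52.1 and -56.5 at deep-layer E13.5, and -81.3 and -67.4 at deep-layer E16.5. The 4 upper-layer lists averaged -10.1 ± 43.2 and the 4 deep-layer lists -64.3 ± 13.05 (SD), a difference of 54.2 points (exact permutation test over lists, two-sided, p = 0.0286, the smallest this design allows). Adjusted with Benjamini-Hochberg over the 2 tests made, p = 0.0571 (exact permutation), so the difference did not pass 0.05. All 4 upper-layer lists lay above all 4 deep-layer lists, but upper-layer E17.5 replicate 1 and deep-layer E13.5 replicate 1 were only about 1 point apart. This separation was lost with sets defined without P1 replicate 1 (40.4 points), P1 replicate 3 (40.5 points) or E18.5 replicate 1 (46.9 points; exact permutation p = 0.0571 in each case), and with 0.5 of a region required to be covered (43.4 points, exact permutation p = 0.114). The test treats the 2 replicates of a stage as independent lists. The peak names in both E17.5 lists carry 1 library name, so these lists may not be independent. Without E17.5 replicate 1 or 2 the difference was 67.8 and 65.4 points (exact permutation test, two-sided, p = 0.0571 each, adjusted p = 0.0952).

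The second test set P5 against the 6 prenatal lists. P5 averaged 27.1 ± 6.40 points and the prenatal lists -58.7 ± 13.6 (SD), a difference of 85.8 points (exact permutation test, two-sided, p = 0.0714, the smallest possible with 2 lists against 6; p = 0.0714 adjusted over the 2 tests). Both P5 lists were positive and all 6 prenatal lists negative. Among the prenatal lists alone, upper-layer E17.5 exceeded the deep-layer lists by 16.96 points (exact permutation test, two-sided, p = 0.133, again the smallest possible). The upper-layer lists from before birth therefore lay with the deep-layer lists rather than with P5 on this measure, with a mean of -47.4 points. Peak width moved with it, since both P5 lists had a lower median width over all their peaks than any prenatal list (in the regions open in all 4 compared lists P5 replicate 2 did not), and its part was not tested.

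**Figure D2:**
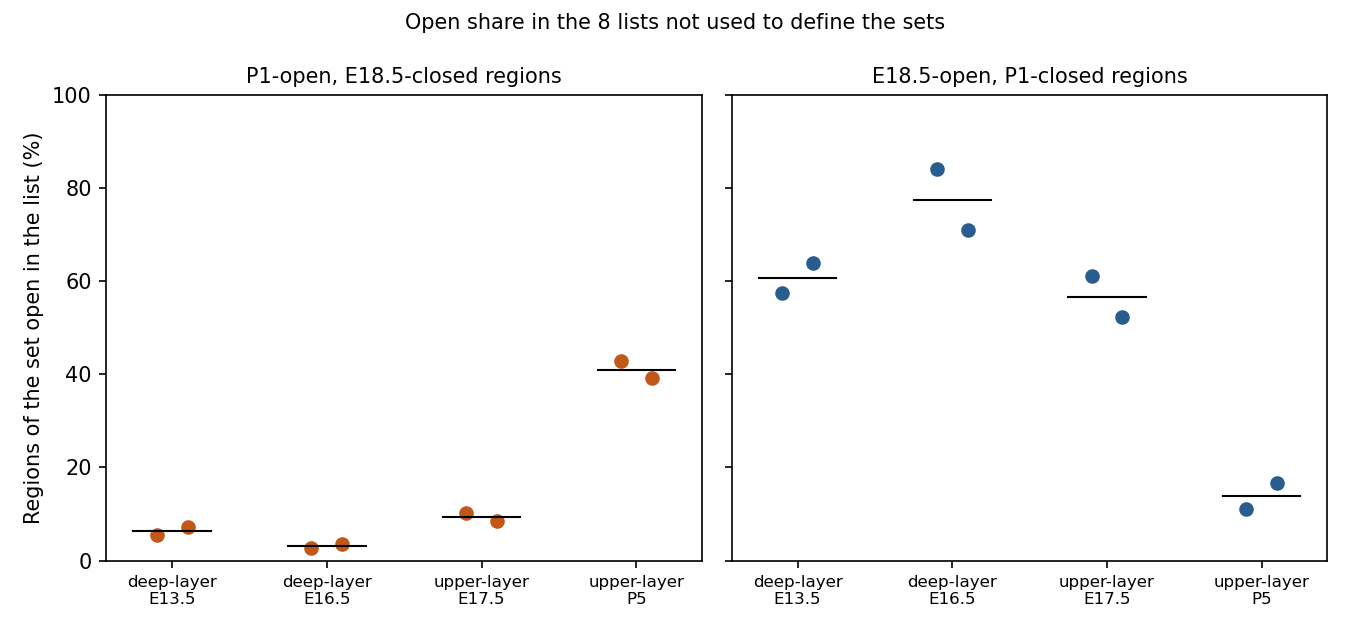
Percent of the P1-open set (left) and of the E18.5-open set (right) that was open in each of the 8 lists not used to define the sets; points are lists and black lines the means of the 2 replicates. P5 lists hold 39.2% and 42.8% of the P1-open set and 11.2% and 16.6% of the E18.5-open set, and the 6 prenatal lists show the reverse.

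Region by region, 12828 of the P1-open set (83.8%) were closed in the 6 prenatal lists that the rule did not use. The E18.5 lists were closed there by the rule. The same 6 lists were closed in 2413 E18.5-open regions (6.80%) and in 101 of the regions open in all 4 lists (0.423%). Of the 12828 P1-open regions, 2737 were open in both P5 lists and 4527 in a single P5 list. The other 5564 (36.4% of the set) were open in none of the 8 other lists. The corresponding share of the E18.5-open set was 5.69%, or 2021 regions. P1-open regions were thus more often without any further list, alongside the lower match of the P1 replicates. Of the 8 other lists, however, 6 were prenatal like E18.5 and only the P5 lists were postnatal like P1. The 2 shares therefore had unequal chances of finding a further open list. In 1145 P1-open regions (7.48%) both E17.5 lists were open, and of these 352 were also open in both P5 lists and 375 in neither. Only 360 P1-open regions were open in both E17.5 lists and in no deep-layer list, and 255 of them were open in at least 1 P5 list. In these 360 regions, 2.35% of the set, both E17.5 lists already differed from all deep-layer lists before birth. All 4 other upper-layer lists and no deep-layer list were open in only 117 P1-open regions. The E17.5 lists may not be independent, as given above, and none of these patterns was counted over all regions.

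The E18.5-open set was mostly an older prenatal set. Both E16.5 lists were open in 23715 of its regions (66.8%) and both E13.5 lists in 18906 (53.3%). All 6 other prenatal lists, upper-layer E17.5 included, were open in 12292 regions (34.6%), and 8936 of these were closed in both P5 lists. Both E17.5 lists were open in 17933 regions (50.5%) and neither in 13220 (37.2%). About as many regions of the set were thus open as not in both lists of younger upper-layer neurons.

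A smaller share was open in deep-layer lists alone. In 9095 regions (25.6%) at least 1 E13.5 or E16.5 list was open and every upper-layer list of any age was closed. All 6 deep-layer lists were open in 1732 of these (4.88% of the set). P1 was closed by the rule and P5 also differs in age and birth. Before birth the contrast with upper-layer neurons thus rests on the E17.5 lists, which may not be independent. The same pattern was not counted over all regions. Also among the 9095, 2722 regions (7.67% of the set) had both E16.5 lists open but no E13.5 list, and so were first seen open in deep-layer neurons at E16.5. Whatever the upper-layer lists, both E16.5 lists and neither E13.5 list were open in 4906 regions of the set (13.8%), and both E13.5 lists and neither E16.5 list in 563 (1.59%).

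Regions closed at P1 were not always closed at P5. Both P5 lists were open in 2050 regions of the E18.5-open set (5.77%) and a single P5 list in 5770 (16.3%). In 1235 of the 2050 regions both E17.5 lists had a peak as well, so that of the upper-layer ages P1 alone was closed. In the P1-open set, 6323 regions (41.3%) were closed in both P5 lists. The P1 replicates matched less well than those of E18.5, as given above, and the part of this in both counts was not tested.

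Wider regions were more often open in other lists. In the P1-open set, P5 replicates 1 and 2 were open in 30.4% and 26.8% of the 5990 regions with a mean width under 300 bp. They were open in 45.4% and 41.7% of regions of 300 to under 500 bp, 69.3% and 65.7% of those of 500 to under 800 bp, and 84.9% and 83.3% of the 239 regions of at least 800 bp. The wide P1-open regions were therefore mostly open at P5 too. The prenatal lists stayed low in every width class. Between the narrowest and the widest class, E17.5 replicates 1 and 2 went from 8.55% and 6.96% to 9.62% each, E13.5 from 4.67% and 6.41% to 6.69% and 7.95%, and E16.5 from 2.70% and 2.74% to 2.93% and 5.86%.

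In the E18.5-open set, E16.5 replicates 1 and 2 were open in 55.6% and 34.9% of the 3557 regions under 300 bp and in 98.0% and 93.8% of the 5711 regions of at least 800 bp. Upper-layer E17.5 was open in 46.3% and 37.9% of the narrowest and 70.8% and 60.7% of the widest. P5 was open in 7.87% and 11.0% of the narrowest and 15.0% and 21.8% of the widest. In the widest class, P5 replicates thus held most of the P1-open regions and at most 21.8% of the E18.5-open regions.

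**Figure D3:**
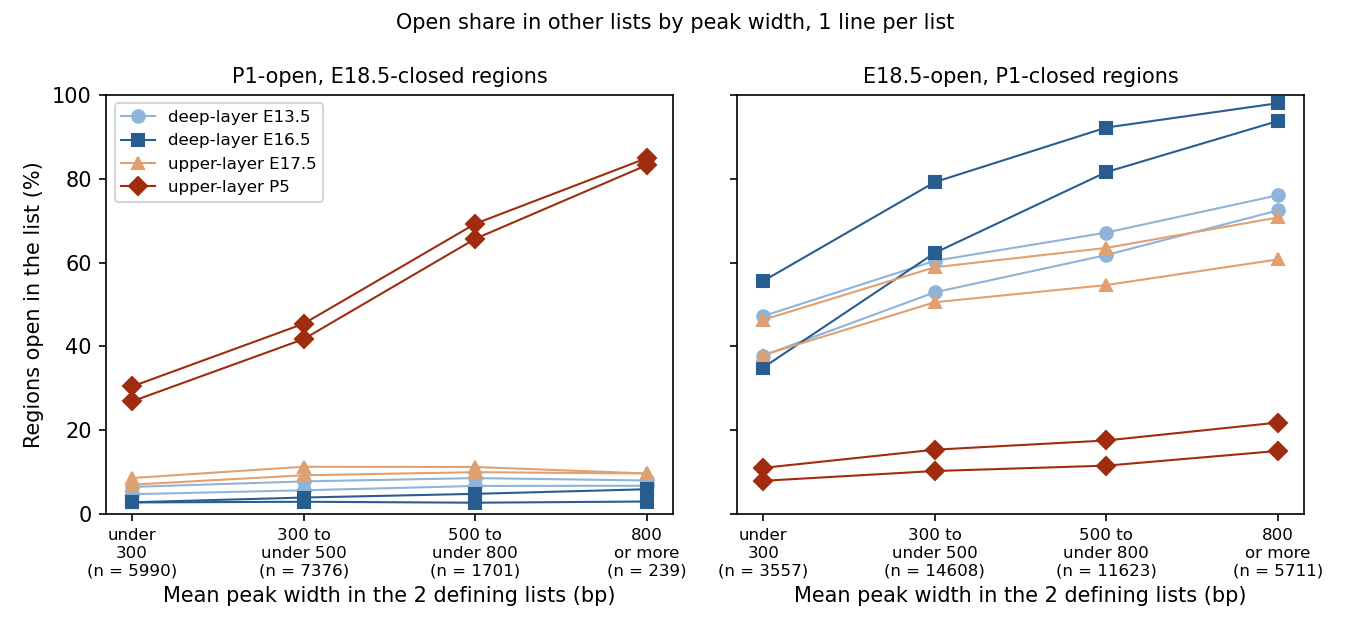
Percent of regions open in each of the 8 other lists (vertical axis) by mean peak width in the 2 defining lists (4 classes in bp, with the number of regions), for the P1-open set (left) and the E18.5-open set (right), 1 line per list. On the left the P5 lines climb from 30.4% and 26.8% to 84.9% and 83.3% while prenatal lines stay under 12%; on the right the E16.5 lines reach 98.0% and 93.8%.

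The widest regions of each set show these patterns at single positions. The widest P1-open region lay at chr3:146139759-146141509, with peaks of 1690 and 1639 bp in P1 replicates 1 and 3. P5 replicates 1 and 2 had peaks of 1699 and 1737 bp there, and all 8 prenatal lists were closed. The next lay at chr1:18068001-18069660, with P1 widths of 1442 and 1521 bp and P5 widths of 933 and 1287 bp. The third lay at chr13:68199582-68201176, with 1237 and 1532 bp at P1 but only 406 and 350 bp at P5. Its 1 Mb window held 42 P1-open regions and is among the 26 richest, where the E18.5 replicates differed, as described below. These 3 were also the widest P1-open regions that were open in both P5 lists and no prenatal list.

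The fourth, at chr3:154271540-154273058, had P1 peaks of 1507 and 1259 bp and a peak of 708 bp in P5 replicate 1, and was closed in P5 replicate 2. The fifth, at chr1:186297232-186298641, had 1370 and 1356 bp at P1 and 1400 and 650 bp at P5. All 5 were closed in every prenatal list. The widest regions were chosen by width, so their width is a description, while their state in the other lists was not used.

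The widest E18.5-open region lay at chr14:13209741-13212088, with peaks of 2191 and 2311 bp in E18.5 replicates 1 and 2. Its peaks were 289 and 422 bp at E13.5 and 1080 and 1149 bp at E16.5. It was chosen for its width at E18.5, which favours a larger width there than at other ages. Upper-layer E17.5 replicate 1 had a peak of 315 bp and P5 replicate 1 one of 650 bp, and both P1 lists were closed. The next lay at chr12:59827402-59829919, with 454 and 391 bp at E13.5, 783 and 796 bp at E16.5, 1936 and 2467 bp at E18.5, and 582 and 421 bp at upper-layer E17.5.

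The region at chr14:119863166-119865458 had peaks of 1953 and 2293 bp at E18.5 and was already 1015 and 1431 bp wide at E13.5. Its upper-layer E17.5 peaks, 1519 and 362 bp, differed between replicates. At chr2:43804186-43806854 the E18.5 peaks were 1834 and 2358 bp and the E17.5 peaks 859 and 585 bp, and at chr15:13213776-13215874 they were 2099 and 2027 bp with 779 and 859 bp at E17.5. All 8 prenatal lists were open and all 4 postnatal lists closed in these last 4 regions.

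Among E18.5-open regions with both E16.5 lists open and every upper-layer list closed, 5422 in all, the widest was at chr10:24708662-24710937. Its peaks were 1548 and 1183 bp at E13.5, 1720 and 1689 bp at E16.5, and 2136 and 1941 bp at E18.5. At chr18:16356956-16359154 the peaks were 499 and 632 bp at E13.5, 921 and 725 bp at E16.5, and 1860 and 2053 bp at E18.5. At chr8:50292710-50294866 both E13.5 lists were closed, and the peaks were 1092 and 1333 bp at E16.5 and 1582 and 2008 bp at E18.5. The regions thus differed in when they were first called; their large width at E18.5 follows from the choice.

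Wide regions just outside the sets show how the rule turns on 1 list. The region at chr3:140434272-140436813 had peaks of 2512 and 2497 bp at P1 and 2467 and 2509 bp at P5, but also a peak of 2392 bp in E18.5 replicate 1 and none in replicate 2. At chr15:75933130-75936302 the peaks were 2369 and 3070 bp at P1, 1836 bp in E18.5 replicate 1, and again none in replicate 2. E18.5 replicate 1 alone kept both out of the P1-open set. On the other side, chr6:36216604-36218986 had E18.5 peaks of 2361 and 2340 bp and only a peak of 372 bp in P1 replicate 3. At chr14:3331071-3333857 the E18.5 peaks were 2316 and 2140 bp, with 511 bp in P1 replicate 3, and the region was open in 11 of 12 lists.

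The sets were spread unevenly over the chromosomes. On the autosomes, the P1-open set took from 4.27% (chromosome 19) to 7.73% (chromosome 14) of the regions open in any of the 4 lists. The E18.5-open set took from 7.52% on chromosome 11 and 7.94% on chromosome 7 to 17.6% on chromosome 3. On chromosome X both shares were higher than on any autosome, at 8.14% and 20.4%. Chromosomes X and 14 held 4 and 6 of the 1 Mb windows richest in P1-open regions, described below. Each of these windows held at least 33 P1-open regions on chromosome X and at least 38 on chromosome 14. The P1-open shares of these 2 chromosomes include those windows and were not computed without them. As a share of the 2 sets together, P1-open regions made up 43.5% on chromosome 7 and 42.6% on chromosome 11, against 21.4% on chromosome 3 and 21.7% on chromosome 10. Chromosomes 7 and 11 stood apart through few E18.5-open regions: their P1-open shares, 6.11% and 5.59%, lay within the range of the other autosomes.

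In windows of 1 Mb on assembled chromosomes, 1977 of 2577 windows held more E18.5-open than P1-open regions and 539 held more P1-open regions. The median window held 4 P1-open and 13 E18.5-open regions. The window richest in E18.5-open regions, at 52 to 53 Mb on chromosome 2, held 51 E18.5-open regions and no P1-open region. It was followed by windows at chr14:13000001-14000000, chr17:63000001-64000000 and chr8:49000001-50000000 with 49 each. In the window on chromosome 2, 92 and 107 regions were open in E18.5 replicates 1 and 2, 83 to 107 in the upper-layer E17.5 lists, 33 and 51 in the P1 lists and 51 and 66 in the P5 lists.

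The P1-open set was denser in a few places. The 26 richest windows, 1% of the total and chosen after the values had been seen, held 1342 P1-open regions, 9.22% of those on assembled chromosomes. By comparison, the 26 windows richest in E18.5-open regions held 3.14% of the E18.5-open regions on assembled chromosomes. The windows richest in P1-open regions held 0.149% of the E18.5-open set and 0.636% of the regions open in all 4 lists. The E18.5-open share there is 53 regions, which became 98 without E18.5 replicate 1 and 398 without replicate 2. Of these windows, 6 lay on chromosome 14, 5 on chromosome 4, 4 each on chromosomes 12 and X and 3 on chromosome 13. The richest, chr13:66000001-67000000, held 90 P1-open and no E18.5-open regions. In it, 232 and 263 regions were open in P1 replicates 1 and 3, 111 and 162 in P5 replicates 1 and 2, and 123 and 3 in E18.5 replicates 1 and 2. The window chr14:43000001-44000000 held 86 P1-open regions, with 193 and 207 open regions at P1, 201 and 163 at P5, and 82 and 5 at E18.5.

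**Figure D4:**
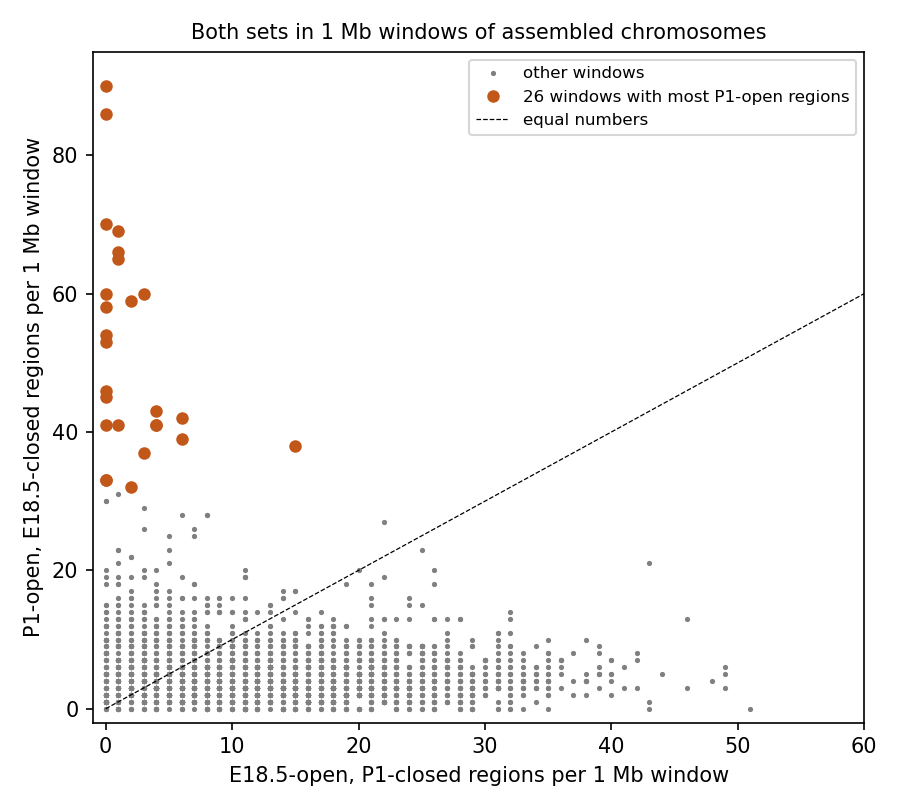
Number of P1-open regions (vertical axis) against E18.5-open regions (horizontal axis) in each of 2577 windows of 1 Mb; orange points are the 26 windows with most P1-open regions and the dashed line marks equal numbers. The orange points reach 90 P1-open regions and hold at most 15 E18.5-open regions, while 1977 of all windows lie below the dashed line.

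In these 26 windows E18.5 replicate 1 stood apart from its replicate. It had 1441 open regions there, 1.62% of all its open regions, and replicate 2 had 307, or 0.260%. P1 replicates 1 and 3 had 3481 and 3672 (3.19% and 3.23%), P5 replicates 1 and 2 had 3283 and 2896, and the other 6 lists had 328 to 540. The P1 counts are fixed by the choice of windows; among the other lists, P5 and E18.5 replicate 1 were high. How reads that match several places were treated is not given in the sources used here, and its part in these windows was not tested. Of the P1-open regions in these windows, 57.9% and 52.5% were open in the P5 lists and at most 3.43% in any of the 6 prenatal lists outside the comparison. Their median width of 341.75 bp was close to the 325 bp of P1-open regions elsewhere. E18.5 replicate 1 was also the shortest of the 12 lists, with 96452 peaks. Without these windows and the unplaced sequences, 13212 P1-open and 35418 E18.5-open regions were left, and the difference between the 4 upper-layer and 4 deep-layer lists was 53.9 points.

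**Figure D5:**
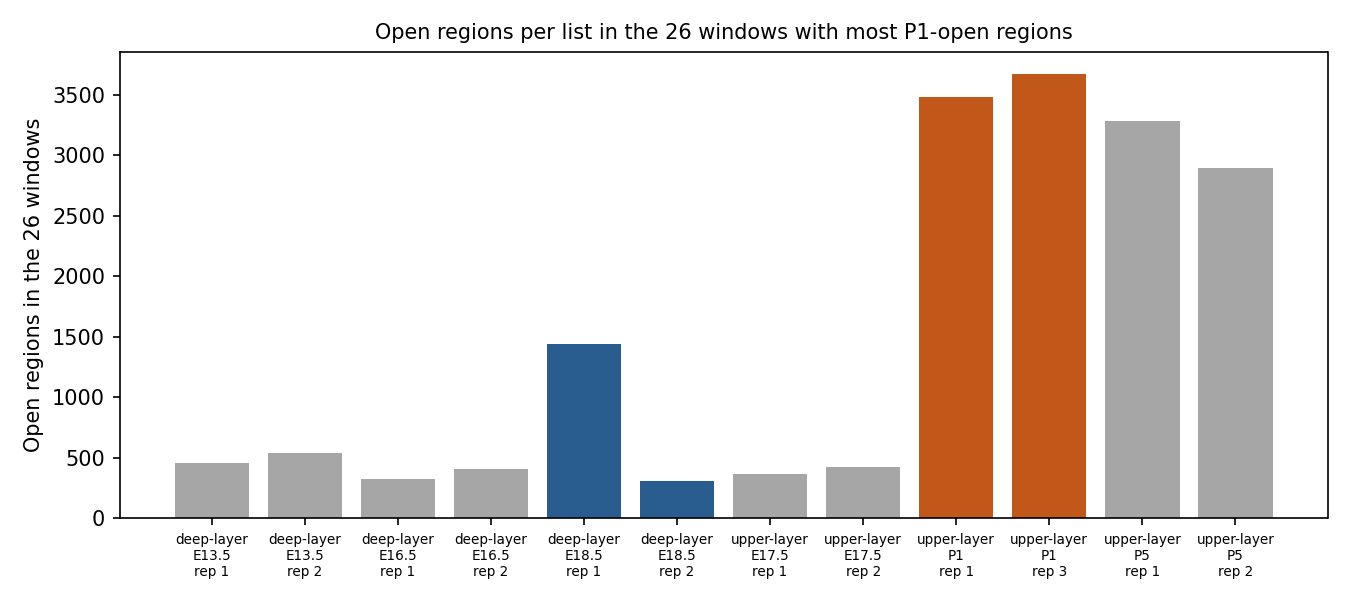
Number of regions open in each of the 12 lists (bars) within the 26 windows of 1 Mb that held most P1-open regions; orange bars are the P1 lists, blue bars the E18.5 lists and grey bars the other lists. E18.5 replicate 1 reaches 1441 against 307 for replicate 2, and the 4 postnatal lists lie between 2896 and 3672.

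On assembled chromosomes the median distance to the nearest region of the same set was 16.7 kb in the E18.5-open set and 35.0 kb in the P1-open set, or 42.6 kb outside the dense windows. A region of the same set lay within 10 kb for 35.6% of E18.5-open regions and 21.3% of P1-open regions outside the dense windows. Among all regions open in any of the 4 lists, the median distance to the next was 2.70 kb and 88.2% had another within 10 kb. The larger set is closer packed by its size alone, so these values do not compare how the sets cluster. Regions open in all 4 lists lay within 10 kb of 15.0% of E18.5-open and 19.6% of P1-open regions outside the dense windows, beside 18.5% of all regions open in 1 to 3 of the 4 lists.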

How the data were processed

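ATAC-seq peak lists of the 12 samples were used. For each sample the authors deposited a list of peak positions, with no score, height or p-value. Per the labels' protocols, 250000 to 500000 GFP-positive cells were sorted per sample, transposed for 30 minutes at 37 degrees and amplified over 12 PCR cycles. Per the submitters' processing notes, cutadapt, Bowtie2, Picard 1.14.0 and MACS2 2.1.0 were used and the build was mm9. Thresholds, read totals and any read shift were not given in the sources used here.

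Merging, open states, Jaccard indices and exact permutation tests were computed with Python 3.11.15, numpy 2.4.6, pandas 2.3.3 and scipy 1.17.1, with matplotlib 3.10.9 for figures. The set calls were checked on simulated lists with peaks of a single width, spaced so that neighbouring regions could not merge. That check covers the counting of the sets, not the merging of neighbouring regions, varied widths or unequal list lengths. A fraction of 0.5, 500 bp windows, peaks of at least 300 bp, equal list lengths (96452 peaks), autosomes, other merging and left-out lists were the alternatives, with pairs of single lists, prenatal lists alone and removal of dense windows added after seeing the data. Named regions were, per set, the 5 widest by mean peak width in the defining lists, the 3 widest also open in both P5 lists and no prenatal list or in both E16.5 lists and no upper-layer list, and the 2 widest open in exactly 1 list of the other group. The groups compared and the lists were chosen with earlier results of these data known. Planned counts for promoters, gene lists and motifs need an mm9 annotation or sequence and are not analysed here.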

Additional observations from a re-analysis of the deposited data

How the results depend on the processing

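Every setting that required both lists of each group kept the E18.5-open set larger than the P1-open set. With peaks of at least 300 bp the P1-open set was 6389 regions and the ratio 4.85. Over the left-out lists the P1-open set ranged from 17167 to 73632 regions, the E18.5-open set from 38720 to 74332 and the ratio from 0.550 to 3.97; without P1 replicate 3 it was 0.615. Counts rise when 1 list defines a group, by construction. For single lists, P1 replicate 1 gave 77249 against 57131 regions with E18.5 replicate 1 (ratio 0.740) and 78465 against 87195 with replicate 2 (1.11). P1 replicate 3 gave 75410 regions (0.673) and 75125 against 79309 (1.06). The population difference in the 8 other lists was 40.3 to 67.8 points over left-out lists and the P5 difference 62.2 to 90.3 points, with adjusted exact permutation p of 0.0571 to 0.114 and 0.0714 to 0.286 over the alternatives that had an adjusted p. No paired analysis was possible because the set counts come from no test and the labels number the P1 replicates 1 and 3 and the E18.5 replicates 1 and 2, which share a single number. The number of peaks is the sole measure of depth here.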

Other observations

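Sequences not placed on a chromosome in mm9 held 752 P1-open regions (4.91% of the set) and 28 E18.5-open regions (0.0789%). They held 133 of the regions open in all 4 lists (0.557%). Of the regions open in any of the 4 lists, the P1-open set took 45.0% on unplaced chromosome Y sequence, beside 5.81% everywhere. It took 18.9% on sequence of no known chromosome and 15.2% on the other unplaced sequences. Of the P1-open ones, 554 lay on unplaced sequence of chromosome Y, where no E18.5-open region was found, and 104 on sequence of no known chromosome. P1 replicates 1 and 3 had 677 and 1172 peaks on chromosome Y and its unplaced sequence, P5 replicates 1 and 2 had 150 and 109, and the 8 prenatal lists had 10 to 46. The sexes of the pooled animals are not given in the labels. Of the P1-open regions on unplaced sequence, 31.0% and 25.4% were open in P5 replicates 1 and 2, below the 41.9% and 38.6% of regions outside both these sequences and the dense windows. E18.5 replicate 1 had 631 peaks on unplaced sequence and replicate 2 had 269, so the replicates again differed there. The part of reads that match several places was not tested on unplaced sequence either.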
